A study of Mus musculus with 4 samples.

Results

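The genes described here are 10 genes used to recognize dendritic cells: *Flt3*, *Clec9a*, *Xcr1*, *Irf8*, *Zbtb46*, *Cd209a*, *Siglech*, *Wdfy4*, *Cadm1* and *Fscn1*. They were chosen by name, as genes of conventional and plasmacytoid dendritic cells, and are 10 of the 25239 gene symbols counted in each library. All 10 passed the expression filter of the test. RNA-Seq was performed in 4 libraries prepared from CD4+ T cells that had infiltrated lung tumors. The labels give 2 as WT and 2 as CD4/ALK4-KO (hereafter KO-labelled), which the series describes as biological replicates. All mice were males on the C57BL/6 background, with an age of 8 to 10 weeks stated in the methods, and received LLC-OVA cells (Lewis lung carcinoma cells carrying ovalbumin) by intravenous injection. The sources differ on the harvest of the tumors, which the labels place at 18 to 22 days and the methods at 16 to 20 days. The CD4/ALK4-KO mice were CD4CreERT2+/-/Acvr1b fl/fl, in which tamoxifen, given in 5 daily doses, switches on Cre recombinase under the *Cd4* promoter and removes the activin receptor gene *Acvr1b* (ALK4). Whether the WT mice also received tamoxifen is not given in the sources used here. The CD4+ T cells were isolated from leukocytes that had been enriched on a Percoll gradient.

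Dendritic cells take up antigen in tissues and tumors and present it to T cells on MHC molecules. Conventional dendritic cells express the transcription factor ZBTB46, depend on the FLT3 receptor and comprise a cDC1 type, which depends on IRF8 and cross-presents antigen of dead cells to CD8+ T cells, and a cDC2 type, which mainly stimulates CD4+ T cells. Plasmacytoid dendritic cells are known for the production of type I interferon. On maturation, dendritic cells raise costimulatory molecules and the chemokine receptor CCR7 and migrate to lymph nodes, where they meet T cells.

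The targeted gene *Acvr1b* had 426 and 342 counts in the WT-labelled libraries and 322 and 445 counts in the KO-labelled pair. The quasi-likelihood test of edgeR gave a log2 fold change of 0.16 with a standard error of 0.24 (adjusted p = 0.66), so it did not separate the labels, and all directions below are between libraries as labelled. Total counts were 11823908 to 13943237 per library. Markers of other cells differed between the labels. All 10 T cell markers, *Cd4* among them (log2 fold change 2.62), were called higher in the KO-labelled libraries, with a summed level of 445 and 418 CPM in the WT-labelled libraries and 2423 and 2282 CPM in the others, and the summed level of 8 B cell markers, all called higher, went from 75 and 65 CPM to 201 and 409 CPM. CPM are counts scaled to the library size after TMM adjustment. The 4 NK cell markers were also called higher, whereas 4 of 7 fibroblast markers were called lower. Of 8 macrophage markers, 1 was called higher and none lower, at a median log2 fold change of -0.44. Of all genes tested, 17.4% were called higher and 15.4% lower. None of these markers was at 0 in any library. Because T cell genes differed so widely, fold changes are also given on a T cell receptor scale, on which the library size is the sum of *Cd3d*, *Cd3e*, *Cd3g* and *Cd247*. Over all genes, it moved the log2 fold change by -2.18 in the median. This scale divides by genes that were themselves higher in the KO-labelled libraries, so a shift downward follows from its construction.

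The stretches of 250 bases that precede the RefSeq start (GRCm38.p6) of *Clec9a*, *Xcr1* and *Cd209a* are printed here, on the strand of the gene, because these 3 genes of dendritic cell surface receptors gave different outcomes in the comparison of the labels: the first fell, the second did not pass the test and the third rose. They lie at chr6:129408612-129408861 (plus strand), chr9:123862030-123862279 (minus strand) and chr8:3748985-3749234 (minus strand), and contain no exon of their gene in GENCODE M21. Capitals mark the motif GGAANNGAA, the letters of a composite site of PU.1 and an IRF factor.
Clec9a: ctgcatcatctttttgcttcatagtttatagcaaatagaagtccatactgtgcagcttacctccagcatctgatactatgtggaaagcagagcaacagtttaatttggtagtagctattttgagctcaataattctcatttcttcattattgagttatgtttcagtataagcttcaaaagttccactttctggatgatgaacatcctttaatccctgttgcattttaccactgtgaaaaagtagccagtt
Xcr1: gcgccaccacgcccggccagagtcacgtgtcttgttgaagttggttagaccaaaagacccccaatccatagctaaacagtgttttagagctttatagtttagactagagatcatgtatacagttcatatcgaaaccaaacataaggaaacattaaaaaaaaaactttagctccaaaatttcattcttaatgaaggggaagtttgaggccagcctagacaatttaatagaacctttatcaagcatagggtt
Cd209a: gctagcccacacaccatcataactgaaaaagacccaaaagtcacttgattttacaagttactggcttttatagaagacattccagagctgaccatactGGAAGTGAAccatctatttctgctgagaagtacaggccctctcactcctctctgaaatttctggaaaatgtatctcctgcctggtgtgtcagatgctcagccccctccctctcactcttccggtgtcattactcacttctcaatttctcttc
The window of *Cd209a* held the composite motif once, with its first base 152 bases before the start, and the windows of *Clec9a* and *Xcr1* did not hold it. Of the 10 genes, 9 had an entry in the RefSeq promoter table, and *Cd209a* was the only one of these 9 with this motif on either strand. Of 32851 RefSeq windows of the same length, 6.99% held it. The ISRE-type motif GAAANNGAA (7.13% of windows) and the PU box GAGGAA (23.3%), which overlap the composite motif in part of their letters, were found in the window of none of the 9 genes. These letter matches are descriptions and not measured binding sites.

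Of the 10 dendritic cell genes, *Flt3*, *Siglech*, *Wdfy4*, *Cd209a* and *Irf8* were higher in the KO-labelled libraries, *Fscn1* and *Clec9a* were lower, and *Xcr1*, *Zbtb46* and *Cadm1* did not pass the test. The rises ranged from 1.55-fold (*Irf8*) to 3.12-fold (*Wdfy4*), and the falls were 1.66-fold (*Clec9a*) and 2.82-fold (*Fscn1*). Over all 13919 genes tested, 17.4% were called higher and 15.4% lower with edgeR at an adjusted p under 0.05. The CPM of the labelled groups did not overlap for 6 genes that were higher, *Zbtb46* among them, and for 2 that were lower, compared with 32.7% and 34.0% of all genes tested. The median log2 fold change of the 10 genes was 0.63 and that of all genes tested was -0.0082. On the T cell receptor scale none of the 10 genes was called higher and 9 were called lower, *Wdfy4* being the exception, and their median was -1.54. Of all 13919 genes tested, 48 were called higher and 12803 lower on that scale, with a median of -2.19. In these bulk libraries, a different number of dendritic cells and a different amount of RNA of these genes per cell cannot be told apart. Nor can a change of the dendritic cell genes be told apart from a change in the T cell RNA that shares the library.

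**Figure D1:**
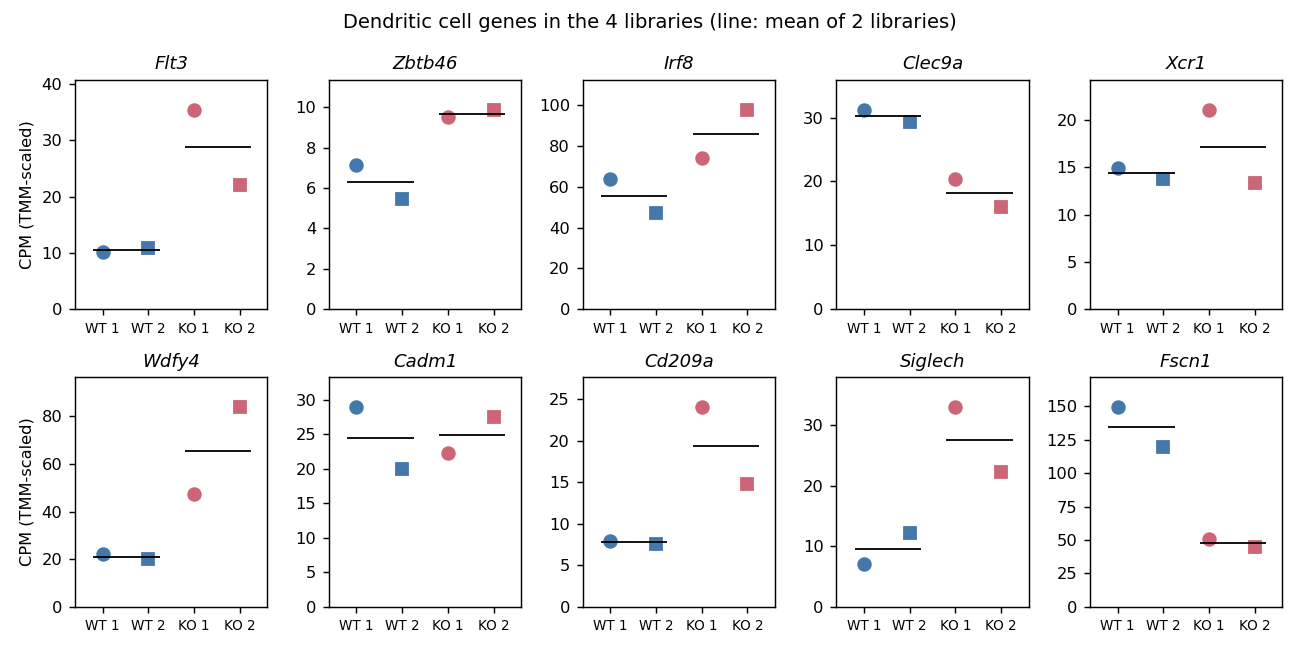
CPM of the 10 dendritic cell genes in each library (y axes start at 0 and differ between panels), with circles for replicate 1, squares for replicate 2, blue for WT, red for CD4/ALK4-KO (KO on the axes), and a line at the mean of the 2 libraries of a label. The red symbols lie above the blue ones for *Flt3*, *Zbtb46*, *Irf8*, *Wdfy4*, *Cd209a* and *Siglech*, below them for *Clec9a* and *Fscn1*, and overlap them for *Xcr1* and *Cadm1*.

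*Flt3* (chromosome 5, 147330741 to 147400489, GRCm38) encodes the receptor of FLT3 ligand, a growth factor on which dendritic cells and their progenitors depend. It had 139 and 147 counts in the WT-labelled libraries and 422 and 273 counts in the KO-labelled pair. Both libraries of the second group were high and the groups did not overlap, although the 2 KO-labelled libraries differed from each other by 1.60-fold in CPM. The mean level was 10.5 ± 0.512 CPM (SD, n = 2) in the WT-labelled libraries and 28.8 ± 9.43 CPM (SD, n = 2) in the KO-labelled pair. The log2 fold change was 1.45 (95% confidence interval 0.86 to 2.04, adjusted p = 0.00045), as against -0.75 on the T cell receptor scale.

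*Zbtb46*, a transcription factor of conventional dendritic cells (chromosome 2, 181387762 to 181459426), had the fewest reads of the 10 genes over the 4 libraries, with 98 and 74 counts against 113 and 122 counts. Both KO-labelled libraries were above both WT-labelled ones, with means of 9.69 ± 0.274 and 6.31 ± 1.19 CPM (SD, n = 2 each). The difference did not pass the test (log2 fold change 0.62, 95% confidence interval -0.054 to 1.29, adjusted p = 0.15), and the interval includes both no difference and a doubling. Its value on the T cell receptor scale was -1.56.

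*Irf8* (chromosome 8, 120736358 to 120756694) encodes a transcription factor required for cDC1, active in plasmacytoid dendritic cells, and also expressed by B cells and macrophages. It had 872 and 635 counts in the WT-labelled libraries and 883 and 1207 counts in the KO-labelled pair, or 55.3 ± 11.8 and 86.0 ± 16.7 CPM (SD, n = 2 each). CD4/ALK4-KO replicate 2 was the highest library and WT replicate 2 the lowest. Its log2 fold change of 0.64 (95% confidence interval 0.16 to 1.11, adjusted p = 0.036) was close to the threshold. The call was lost with upper quartile scaling (adjusted p = 0.064). It was also lost without WT replicate 1 (log2 fold change 0.87), without WT replicate 2 (0.43) and without CD4/ALK4-KO replicate 2 (0.42). On the T cell receptor scale, which moved all genes by -2.18 in the median, the value was -1.53.

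Among the genes of cDC1, *Clec9a* (chromosome 6, 129408862 to 129424763), a lectin receptor that recognizes dead cells, fell. Its 428 and 396 counts in the WT-labelled libraries stood against 243 and 197 counts in the KO-labelled pair. The groups did not overlap, and the mean went from 30.3 ± 1.38 to 18.2 ± 3.15 CPM (SD, n = 2 each). The log2 fold change was -0.73 (95% confidence interval -1.26 to -0.21, adjusted p = 0.030), as against -2.93 on the T cell receptor scale. The call was lost without WT replicate 1 (adjusted p = 0.25), without WT replicate 2 (adjusted p = 0.14) and without CD4/ALK4-KO replicate 2 (adjusted p = 0.083), while the direction was kept. The locus overlaps *Clec1b* on the same strand, which had 18 to 43 counts per library.

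*Xcr1* (chromosome 9, 123852315 to 123862029), the chemokine receptor by which cDC1 respond to XCL1, did not pass the test. It had 205 and 186 counts in the WT-labelled libraries and 251 and 164 counts in the KO-labelled pair. The highest and the lowest library both belonged to CD4/ALK4-KO, so that the groups overlapped. Mean levels were 14.4 ± 0.855 and 17.2 ± 5.52 CPM (SD, n = 2 each), with a log2 fold change of 0.26 (95% confidence interval -0.33 to 0.85, adjusted p = 0.53) and one of -1.94 on the T cell receptor scale. The direction turned without CD4/ALK4-KO replicate 1 (-0.081).

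*Wdfy4* (chromosome 14, 32959547 to 33185508), required for cross-presentation by cDC1 and also expressed by B cells, showed the highest rise of the 10 genes. Counts were 303 and 270 in the WT-labelled libraries and 565 and 1034 in the KO-labelled pair. The mean level was 21.0 ± 1.52 CPM against 65.6 ± 25.7 CPM (SD, n = 2 each), and CD4/ALK4-KO replicate 2 exceeded replicate 1 by 1.76-fold. The log2 fold change was 1.64 (95% confidence interval 1.11 to 2.17, adjusted p = 3.8e-05). It was 2.02 without CD4/ALK4-KO replicate 1, 1.17 without replicate 2, with -0.52 (adjusted p = 0.070) on the T cell receptor scale. The locus contains *Lrrc18* on the opposite strand, with 7 to 16 counts per library.

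*Cadm1* (chromosome 9, 47530173 to 47857637) encodes an adhesion molecule of cDC1 and of epithelial cells that binds CRTAM on activated T cells. It had 396 and 270 counts against 265 and 339 counts, and the groups overlapped. Means of 24.4 ± 6.32 and 24.9 ± 3.67 CPM (SD, n = 2 each) gave a log2 fold change of 0.025, with a 95% confidence interval from -0.52 to 0.57 (adjusted p = 0.95). The sign changed with upper quartile scaling, without WT replicate 2 and without CD4/ALK4-KO replicate 2. On the T cell receptor scale, which moved all genes by -2.18 in the median, the value was -2.14.

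*Cd209a* (chromosome 8, 3743397 to 3748984) encodes a lectin related to DC-SIGN that marks cDC2 and dendritic cells derived from monocytes. It rose from 108 and 103 counts in the WT-labelled libraries to 286 and 182 counts in the KO-labelled pair. The WT-labelled libraries were nearly equal, at 7.75 ± 0.188 CPM, and the others stood apart from each other, at 19.4 ± 6.57 CPM (SD, n = 2 each). The log2 fold change was 1.32 (95% confidence interval 0.70 to 1.94, adjusted p = 0.0018), as against -0.88 on the T cell receptor scale. Beside it, 2 of 4 monocyte markers were called higher and none lower, against 17.4% and 15.4% of all genes tested. Their median log2 fold change was 0.40, and none was at 0 in any library. Their summed level was 882 and 1238 CPM in the WT-labelled libraries and 1608 and 1350 CPM in the KO-labelled pair. The part of monocytes in the rise of *Cd209a* was not tested. *Cd209a* belongs to a cluster of related lectin genes, and how reads of shared sequence were counted is not given in the sources used here.

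*Siglech* (chromosome 7, 55768178 to 55778925), a sialic acid-binding lectin of plasmacytoid dendritic cells and of some macrophages, had 96 and 165 counts in the WT-labelled libraries and 392 and 274 counts in the KO-labelled pair. The lower KO-labelled library was above the higher WT-labelled one. Its level was 9.60 ± 3.67 CPM against 27.6 ± 7.59 CPM (SD, n = 2 each), with a log2 fold change of 1.52 (95% confidence interval 0.89 to 2.15, adjusted p = 0.00056). Leaving out WT replicate 1 gave 1.17 and leaving out WT replicate 2 gave 1.97, and it turned to -0.69 on the T cell receptor scale.

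*Fscn1* (chromosome 5, 142960343 to 142973185) encodes fascin, an actin-bundling protein of mature dendritic cells that is also found in stromal and tumor cells. Per kilobase of exon it had the highest level of the 10 genes in all 4 libraries. It had 2045 and 1619 counts in the WT-labelled libraries and 604 and 549 counts in the KO-labelled pair. The groups were far apart, at 134 ± 20.9 and 47.6 ± 4.44 CPM (SD, n = 2 each). The log2 fold change was -1.50 (95% confidence interval -1.95 to -1.04, adjusted p = 1.8e-05), and it stayed negative in each alternative run, from -1.34 without WT replicate 1 to -3.68 on the T cell receptor scale. Beside it, the summed level of 7 fibroblast markers, 4 of them called lower, was 6712 and 7307 CPM in the WT-labelled libraries and 4773 and 3965 CPM in the others. That of 6 epithelial markers, 3 called lower and 2 higher, was 539 and 501 CPM against 287 and 310 CPM. Of all genes tested, 15.4% were called lower and 17.4% higher. The part of fibroblasts and epithelial cells in the fall of *Fscn1* was not tested.

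**Figure D2:**
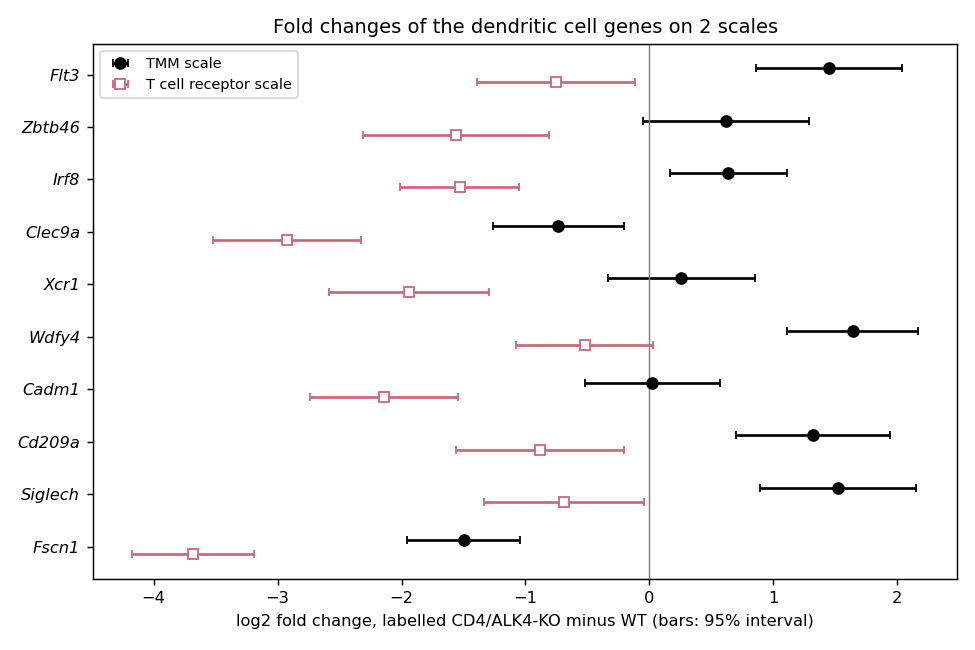
Log2 fold change of each dendritic cell gene (x axis, KO-labelled minus WT-labelled libraries) with its 95% confidence interval, on the TMM scale (filled circles) and on the T cell receptor scale (open squares). On the TMM scale the values range from -1.50 (*Fscn1*) to 1.64 (*Wdfy4*), while all 10 values of the T cell receptor scale lie below 0, with the interval of *Wdfy4* reaching 0.033.

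The sum of the 10 genes hardly differed, at 342 and 286 CPM in the WT-labelled libraries and 338 and 352 CPM in the KO-labelled pair, because opposite changes were added. *Fscn1* held 43.6% and 41.9% of this sum in the WT-labelled libraries and 15.0% and 12.6% in the others. Without *Fscn1* the sum of the other 9 was 193 and 166 CPM against 287 and 307 CPM. Scaled per kilobase of exon, which allows genes to be compared, the order in the WT-labelled libraries was *Fscn1*, *Clec9a*, *Irf8*, *Cd209a*, *Xcr1*, *Siglech*, *Cadm1*, *Wdfy4*, *Flt3* and *Zbtb46*. The levels ran from 44.6 to 0.742 CPM per kilobase. *Clec9a* and *Irf8* overlapped over the libraries, as did *Xcr1* with *Siglech*, *Siglech* with *Cadm1* and *Cadm1* with *Wdfy4*. In the KO-labelled libraries the order was *Fscn1*, *Cd209a*, *Irf8*, *Siglech*, *Wdfy4*, *Clec9a*, *Flt3*, *Xcr1*, *Cadm1* and *Zbtb46*, from 15.8 to 1.14 CPM per kilobase. Neighbours overlapped there from *Fscn1* to *Irf8* and from *Siglech* to *Xcr1*. *Clec9a* thus went from second place, at 9.19 ± 0.420 CPM per kilobase, to sixth place, at 5.52 ± 0.957 CPM per kilobase (SD, n = 2 each).

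Ratios between 2 genes of the same library do not depend on the scaling of that library. Counts of 7 pairs of the dendritic cell genes were compared, which were chosen after the values were seen. *Clec9a* held 67.6% (95% Wilson interval 63.9% to 71.1%) and 68.0% (64.1% to 71.7%) of the counts of *Clec9a* and *Xcr1* together in the WT-labelled libraries. In the KO-labelled pair it held 49.2% (44.8% to 53.6%) and 54.6% (49.4% to 59.6%). These intervals cover counting error only, and those of the labelled groups did not overlap. The ratio of *Clec9a* to *Xcr1*, both receptors of cDC1, was therefore 2.09 and 2.13 against 0.968 and 1.20, a mean difference of -0.97 on the log2 scale. The share of *Clec9a* in the pair with *Flt3* went from 75.5% and 72.9% to 36.5% and 41.9%. *Irf8* held 74.2% and 70.2% of its pair with *Wdfy4* in the WT-labelled libraries and 61.0% and 53.9% in the others.

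The ratio of *Siglech* to *Flt3* overlapped between the labels, the share of *Siglech* being 40.9% and 52.9% in the WT-labelled libraries and 48.2% and 50.1% in the KO-labelled pair. The ratio of *Cd209a* to *Clec9a* was 4.07-fold higher in the KO-labelled libraries, and that of *Siglech* to *Clec9a* was 4.90-fold higher. With 2 libraries per label an exact two-sided permutation test cannot go below p = 0.333, and 6 of the 7 pairs reached this value (adjusted p = 0.389 over the 7 pairs), the pair of *Siglech* and *Flt3* having p = 1. These comparisons therefore rest on the distance between libraries and not on the test.

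**Figure D3:**
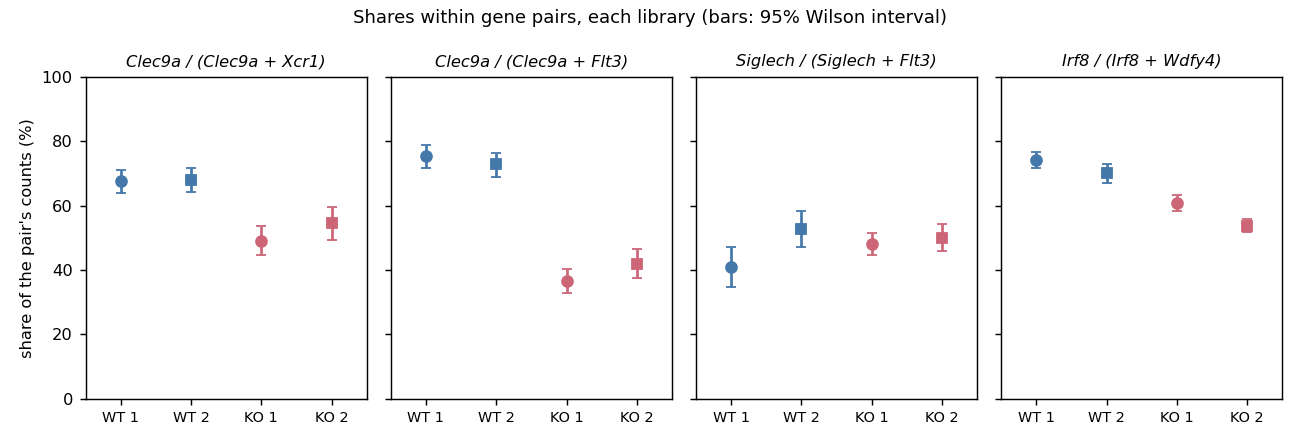
Share of the first gene in the summed counts of 4 pairs of dendritic cell genes (y axis, %) in each library, with blue for WT, red for CD4/ALK4-KO (KO on the axes) and bars for the 95% Wilson interval. The red symbols lie below the blue ones for *Clec9a* with *Xcr1*, *Clec9a* with *Flt3* and *Irf8* with *Wdfy4*, while for *Siglech* with *Flt3* they lie between the 2 WT-labelled libraries (40.9% and 52.9%).

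The 2 KO-labelled libraries differed from each other in these genes. *Cd209a*, *Flt3*, *Xcr1*, *Siglech*, *Clec9a* and *Fscn1* were higher in replicate 1, by 1.14-fold (*Fscn1*) to 1.63-fold (*Cd209a*). *Wdfy4*, *Irf8*, *Cadm1* and *Zbtb46* were higher in replicate 2, by 1.04-fold (*Zbtb46*) to 1.76-fold (*Wdfy4*). With 1 library on each side there is no replicate check of this difference. All 8 B cell markers were also higher in replicate 2, by 1.44-fold (*Ms4a1*) to 3.80-fold (*Pax5*). The summed level of 8 macrophage markers was 1251 CPM in replicate 1 and 1500 CPM in replicate 2. Among them, *Csf1r* was at 163 and 252 CPM, *Cd68* at 131 and 196 CPM and *Mrc1* at 299 and 271 CPM. None of these markers was at 0 in any library. The part of B cells in the levels of *Irf8* and *Wdfy4*, and of macrophages in that of *Irf8*, was not tested. In the WT-labelled libraries, the summed B cell markers were 75 and 65 CPM and the macrophage markers 1879 and 1370 CPM. There, *Wdfy4* differed by 1.11-fold and *Irf8* by 1.36-fold between the replicates.

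**Figure D4:**
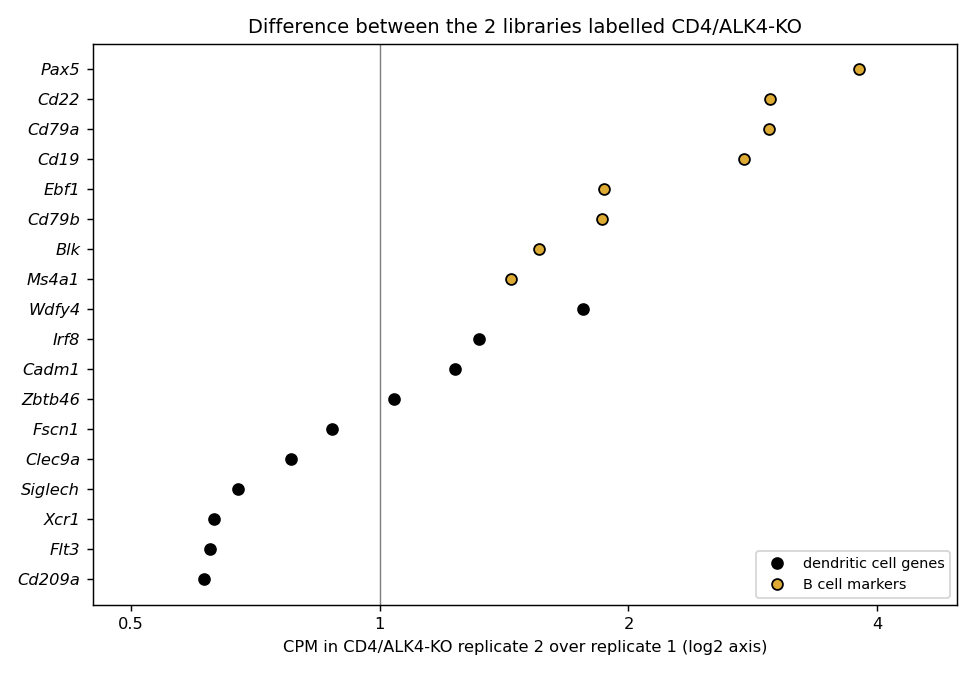
CPM in CD4/ALK4-KO replicate 2 divided by CPM in replicate 1 (x axis, log2 spacing) for the 10 dendritic cell genes (black) and the 8 B cell markers (yellow), 1 library each. The B cell markers lie between 1.44 and 3.80, and the dendritic cell genes between 0.614 (*Cd209a*) and 1.76 (*Wdfy4*).

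A further 40 genes of dendritic cells were examined as lists of cDC1, cDC2, plasmacytoid and mature dendritic cells, and 39 of them were tested. In the KO-labelled libraries, 14 were called higher and 2 lower, against 17.4% and 15.4% of all genes tested, with a median log2 fold change of 0.45. Fewer of these genes were called without WT replicate 1 and without WT replicate 2, and fewer of all genes tested were called as well. The part of T and B cells in these lists was not tested. On the T cell receptor scale 1 was called higher, *Irf4*, and 32 lower, against 48 and 12803 of all 13919 genes tested. The genes named below are the 3 most abundant of each list, *Batf3* and the other called genes. Also named are the other tested genes of the cDC2 and mature lists. All but the most abundant genes were added after their values were seen.

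Of the 9 cDC1 genes, 2 were called higher and none lower, against 17.4% and 15.4% of all genes tested, at a median of 0.31. *Id2*, an inhibitor of helix-loop-helix factors needed for cDC1 and also active in T and NK cells, rose from 191 ± 2.58 to 312 ± 40.8 CPM (log2 fold change 0.71, adjusted p = 0.016, edgeR). *Itgae*, the integrin CD103 of cDC1 and of resident T cells, reached a log2 fold change of 2.03 (adjusted p = 6.9e-07). *Naaa*, a lysosomal amidase, and *Nfil3*, a transcription factor, did not pass (0.52 and 0.45). *Batf3*, the transcription factor that maintains cDC1, was low in all libraries, with 2.65 ± 0.232 and 2.80 ± 0.278 CPM (SD, n = 2 each). Its log2 fold change was 0.083 (adjusted p = 0.92). The call of *Id2* was lost without WT replicate 1 (adjusted p = 0.23) and without WT replicate 2 (adjusted p = 0.18). On the T cell receptor scale the values of all 5 were negative.

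Of the 8 cDC2 genes, 7 were tested. Of these, 2 were called higher and none lower, against 17.4% and 15.4% of all genes tested, with a median of 0.25. *Irf4*, a transcription factor of cDC2 and equally of activated T and B cells, rose from 5.29 ± 0.776 to 45.3 ± 15.2 CPM (SD, n = 2 each; log2 fold change 3.10, adjusted p = 8.3e-08) and was still higher on the T cell receptor scale (0.93). *Sirpa*, an inhibitory receptor of cDC2 and macrophages, rose by 0.83 on the log2 scale (adjusted p = 0.0054) but was at -1.35 on the T cell receptor scale. It was not called without WT replicate 1 (adjusted p = 0.098) or WT replicate 2 (adjusted p = 0.10). The signalling receptor *Notch2* (0.49, adjusted p = 0.10) and the transcription factor *Klf4* (-0.12, adjusted p = 0.71) did not pass. Nor did *Clec10a* (0.25, adjusted p = 0.58), *Esam* (-0.13, adjusted p = 0.76) and *Mgl2* (0.00051).

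The 12 plasmacytoid genes had 4 called higher and 1 lower, against 17.4% and 15.4% of all genes tested, at a median of 0.37. The called genes included *Spib*, a transcription factor shared with B cells, at 2.60 (adjusted p = 2.1e-05), and *Pacsin1*, an adaptor protein of plasmacytoid cells, at 2.71 (adjusted p = 6.2e-06). *Tlr9*, a DNA sensor shared with B cells, was at 1.49 (adjusted p = 0.016) and *Irf7*, the master factor of type I interferon, at 0.64 (adjusted p = 0.021). *Spib* was 2.92 and 2.22 CPM in the WT-labelled libraries and 9.66 and 21.6 CPM in the KO-labelled pair, with replicate 2 the highest as for the B cell markers. *Pacsin1* was nearly equal in the latter, at 12.9 and 12.6 CPM, against 2.12 and 1.77 CPM. *Ptprs*, a receptor phosphatase of plasmacytoid cells and of other tissues, fell by 0.78 on the log2 scale (adjusted p = 0.011). *Tcf4*, the factor that specifies plasmacytoid dendritic cells and is also expressed by stromal cells, was at -0.51 (adjusted p = 0.070), and *Bst2*, a surface protein induced by interferon in many cells, at -0.11 (adjusted p = 0.74). Without WT replicate 1 the adjusted p was 0.20 for *Tlr9*, 0.28 for *Irf7* and 0.18 for *Ptprs*, and without WT replicate 2 it was 0.080, 0.18 and 0.066. On the T cell receptor scale *Spib* (0.46) and *Pacsin1* (0.53) stayed positive without passing the test, and *Tlr9* and *Irf7* were negative.

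Of the 11 genes of mature dendritic cells, 6 were called higher and 1 lower, against 17.4% and 15.4% of all genes tested. Their median was 0.61. The chemokine receptor *Ccr7*, which naive and memory T cells share, rose from 29.5 ± 4.63 to 129 ± 6.94 CPM (SD, n = 2 each; log2 fold change 2.12, adjusted p = 3.1e-07). The surface proteins *Cd83* (1.32, adjusted p = 7.4e-05), *Cd40* (0.89, adjusted p = 0.012) and *Cd86* (0.61, adjusted p = 0.038) rose as well. The chemokine *Ccl22* (1.13, adjusted p = 0.0087) and *Il12b*, a subunit of interleukin-12 (0.85, adjusted p = 0.035), were also higher. Of the 4 genes not called, the chemokine *Ccl17* (-1.46, adjusted p = 0.059) and *Cacnb3* (-0.25, adjusted p = 0.52) were on the lower side. *Relb* (0.50, adjusted p = 0.12) and *Cd80* (0.47, adjusted p = 0.11) were on the higher side. *Ccl17* was low, with 49 and 26 counts in the WT-labelled libraries and 13 and 11 counts in the KO-labelled pair. *Marcksl1*, an actin regulator, fell by 0.64 on the log2 scale (adjusted p = 0.031), as did *Fscn1* among the 10 genes above. Several of these calls rested on both WT-labelled libraries, and calls over all genes tested also became fewer without either of them. Without WT replicate 1 the adjusted p was 0.50 for *Cd86*, 0.068 for *Cd40*, 0.30 for *Il12b* and 0.47 for *Marcksl1*, and without WT replicate 2 it was 0.099, 0.21, 0.16 and 0.070, and 0.18 for *Ccl22*. Without CD4/ALK4-KO replicate 1, *Il12b* (adjusted p = 0.11) and *Marcksl1* (adjusted p = 0.055) were not called either, and upper quartile scaling ended the calls of *Cd86* (0.057) and *Il12b* (0.059). The T cell receptor scale placed all 7 called genes below 0, from -0.065 for *Ccr7* to -2.82 for *Marcksl1*.

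Ligands and partners of the dendritic cell receptors were given by a list of 7 genes, of which 6 were tested. Of these, 4 were called higher and none lower, against 17.4% and 15.4% of all genes tested. *Flt3l*, the ligand of FLT3, had 9.69 ± 0.846 CPM in the WT-labelled libraries and 29.7 ± 4.60 CPM in the KO-labelled pair (SD, n = 2 each; log2 fold change 1.62, adjusted p = 8.9e-05). *Xcl1*, the ligand of XCR1 made by T and NK cells, rose from 4.89 and 8.06 CPM to 16.9 and 25.6 CPM (1.71, adjusted p = 0.00025), whereas its receptor *Xcr1* did not pass the test. *Crtam*, the partner of CADM1 on T cells, was at 24.4 ± 1.07 and 19.9 ± 3.08 CPM and did not pass either (-0.29, adjusted p = 0.41). *Itgax*, the integrin CD11c of dendritic cells and many macrophages, rose by 1.42 on the log2 scale (adjusted p = 0.00024) and *Csf2rb*, a chain of the GM-CSF receptor, by 0.91 (adjusted p = 0.0058). *Csf2ra*, the other chain, was at 0.46 (adjusted p = 0.15), and *Csf2*, the cytokine GM-CSF itself, had 4 and 5 counts against 16 and 5 counts and was too low to be tested. The call of *Csf2rb* was lost without WT replicate 2 (adjusted p = 0.12) and without CD4/ALK4-KO replicate 2 (adjusted p = 0.064). Each of the tested partner genes was below 0 on the T cell receptor scale.

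All 8 genes of MHC class II presentation, which dendritic cells share with B cells and macrophages, were called higher, against 17.4% of all genes tested. Their median log2 fold change was 0.95. *H2-Aa* rose by 0.57 on the log2 scale (adjusted p = 0.036), *H2-Eb1* by 0.86 (adjusted p = 0.0048) and *Cd74*, the invariant chain, by 1.03 (adjusted p = 0.0016, edgeR). *Cd74* was highest in CD4/ALK4-KO replicate 2, at 1617 CPM, followed by replicate 1 at 1117 CPM and the WT-labelled libraries at 785 and 557 CPM. Fewer of the 8 were called without WT replicate 1 and without WT replicate 2, and fewer of all genes tested were called as well. *H2-Aa* was not called in either case (adjusted p = 0.18 and 0.47) or with upper quartile scaling (0.059), and *Cd74* (0.11) and *H2-Eb1* (0.21) were not called without WT replicate 2. On the T cell receptor scale 6 were called lower and none higher, against 12803 and 48 of all 13919 genes tested.

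**Figure D5:**
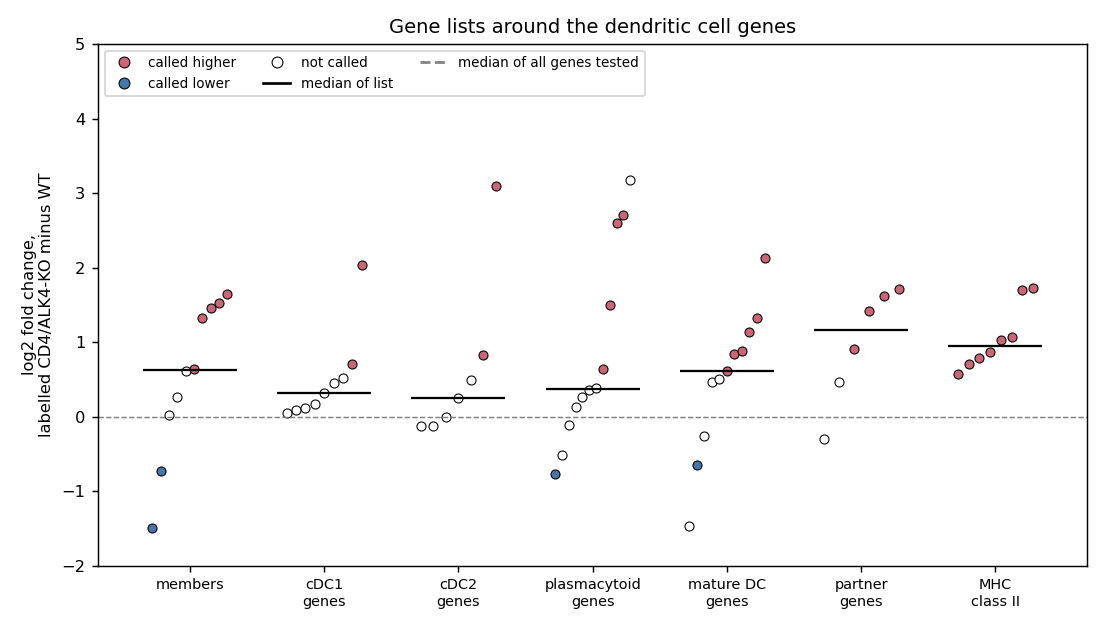
Log2 fold change (y axis, KO-labelled minus WT-labelled libraries) of each tested gene of the 10 dendritic cell genes (members) and of the other lists, on the TMM scale. Red points were called higher, blue ones lower and white ones not called, black lines are list medians (0.63 for the 10 genes, 0.95 for MHC class II), and the dashed line is the median of all genes tested (-0.0082).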

How the data were processed

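Per the labels and the methods, 75 bp single-end reads of 4 libraries were aligned to mm10 with HISAT2 and counted per gene with HTSeq in its intersection non empty mode, and the authors deposited these raw counts, not normalized, by gene symbol. Tool versions, annotation and strand setting are not given in the sources used here. Here, counts were tested with edgeR 4.0.16 (R 4.3.3): filterByExpr, TMM, a robust quasi-likelihood fit with the label as the only term, and Benjamini-Hochberg adjustment over 13919 genes, with calls at an adjusted p under 0.05. The standard error was taken from the log2 fold change and its F statistic, and intervals are 95% t intervals. Replicates differed by more than sampling noise (chi-square per degree of freedom 16.0 for WT and 28.7 for CD4/ALK4-KO). CPM per kilobase used the union of exons in GENCODE M21 (GRCm38). The loci of *Flt3*, *Clec9a*, *Irf8*, *Zbtb46* and *Cadm1* overlap predicted genes (Gm symbols), whose reads were not separated here. Scripts were tested on simulated counts.

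The members and lists were chosen with earlier results of these data known. Named genes were the 10 members, the partner genes, the 3 most abundant genes of each dendritic cell and MHC class II list, *Acvr1b* and *Cd4*. Further called genes, *Batf3*, *Ccr9* and the other tested genes of the cDC2 and mature lists were added after their values were seen. Alternatives were DESeq2 1.42.0 size factors and Wald test, upper quartile and T cell receptor scaling, no filter, at least 10 counts in every library, edgeR's likelihood ratio test, a replicate block, removal of mitochondrial, haemoglobin, immunoglobulin and ribosomal protein genes, and each library left out.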

Additional observations from a re-analysis of the deposited data

How the results depend on the processing

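Of the 10 genes, 5 were called higher and 2 lower, and these counts were also obtained with DESeq2's size factors and Wald test, the likelihood ratio test, no filter, at least 10 counts in every library and the removal of mitochondrial, haemoglobin, immunoglobulin and ribosomal protein genes. T cell receptor scaling gave 0 higher and 9 lower of the 10 (median -1.54), 1 higher and 32 lower of the other dendritic cell genes, and 0 higher and 6 lower of the MHC class II genes. Of all 13919 genes tested, this scaling called 48 higher and 12803 lower. It turned the log2 fold changes of *Flt3* (-0.75), *Xcr1* (-1.94), *Irf8* (-1.53), *Zbtb46* (-1.56), *Cd209a* (-0.88), *Siglech* (-0.69), *Wdfy4* (-0.52) and *Cadm1* (-2.14), and of the partners *Flt3l* (-0.56), *Xcl1* (-0.46), *Csf2ra* (-1.71), *Csf2rb* (-1.25) and *Itgax* (-0.76). It also turned *Id2* (-1.48), *Naaa* (-1.66), *Nfil3* (-1.72), *Itgae* (-0.16), *Batf3* (-2.09), *Notch2* (-1.68), *Sirpa* (-1.35), *Irf7* (-1.55), *Tlr9* (-0.68), *Ccr7* (-0.065), *Cd86* (-1.59), *Cd83* (-0.87), *Ccl22* (-1.05), *Il12b* (-1.35), *Cd40* (-1.29), *H2-Aa* (-1.61), *Cd74* (-1.14), *H2-Eb1* (-1.30) and *Acvr1b* (-2.01). This follows from its construction, since it divides by genes that were themselves higher. Upper quartile scaling turned *Cadm1* (-0.044).

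With each library left out in turn, 1 to 2 of the 10 genes were called lower and 4 to 5 higher (median 0.43 to 0.84), 6 to 19 of the other dendritic cell genes were called higher and 0 to 3 lower, and 3 to 8 MHC class II genes were called higher. Over the same fits *Xcr1* ran from -0.081 to 0.55, *Cadm1* from -0.23 to 0.31, *Klf4* from -0.39 to 0.12, *Batf3* from -0.028 to 0.21 and *Acvr1b* from -0.065 to 0.39. Over all genes tested, calls also became fewer without either WT-labelled library, and more numerous without either KO-labelled one. A label with 1 library left is assumed to vary like the other.

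The labels do not say that the replicate numbers pair the libraries, and deviations of same-numbered libraries correlated at -0.21. With the replicate block 4 of the 10 genes were called higher and 1 lower, *Irf8* and *Clec9a* being lost, 11 and 1 of the other dendritic cell genes, 6 MHC class II genes, and 1768 and 1444 of all genes, against 2422 and 2140 without it. The crossed pairing, chosen after seeing the data, gave 5 and 2 of the 10 genes, 19 and 3 of the others, and 3118 and 3037 of all genes. The lowest count of the 10 genes was 74 (*Zbtb46*, WT replicate 2).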

Other observations

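*Ccr9*, a chemokine receptor of plasmacytoid dendritic cells and of gut-homing T cells, stood apart in a single library. It had 112 and 96 counts in the WT-labelled libraries, 1435 counts in CD4/ALK4-KO replicate 1 and 224 counts in replicate 2, that is 120.6 and 18.1 CPM in the latter against 8.17 and 7.10 CPM. Its log2 fold change of 3.18 (standard error 1.36) did not pass edgeR's quasi-likelihood test (adjusted p = 0.24) and was 1.28 without CD4/ALK4-KO replicate 1 (adjusted p = 0.00025). It passed DESeq2's Wald test (adjusted p = 0.024) and the likelihood ratio test (adjusted p = 0.030), and its adjusted p over all alternatives was lowest at 2.4e-57, without CD4/ALK4-KO replicate 2, and highest at 0.70, without WT replicate 1.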
